A study of Mus musculus with 18 samples.

Results

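CD4 T cells that carried the Gli2A transgene were compared with wild-type (WT) CD4 T cells after a 6 h culture on anti-CD3 and anti-CD28. The differences rest on 6 of the 18 arrays of the series, chosen by their titles: 3 arrays of stimulated Gli2A Tg cells and 3 of stimulated WT cells. Their standard errors and p-values use a spread estimated from all 18 arrays, unless another fit is named. All mice were C57BL/6 and 9 to 15 weeks old, and the cells were purified from spleen with magnetic beads. The antibody to CD3 engages the T cell receptor complex and that to CD28 a co-stimulatory receptor, so the arrays show an early stage of activation. The name Gli2A stands for an activator form of the transcription factor Gli2. The sources used here do not name the promoter that drives the transgene, the part of Gli2 it holds or the number of founder lines. Cells cultured for the same time without antibodies were not analysed here. Of the other groups, resting Gli2A Tg and resting WT cells (3 arrays each) show the same genotypes fresh from the spleen. Their difference shares no array with the stimulated difference, but the tests of both use the same spread estimate for each gene. Stimulated cells of mice with the Gli2R transgene, a repressor form (3 arrays), are given beside single genes, and a difference between them and WT uses the same 3 WT arrays. The sources used here do not say if replicates stem from different mice, so the p-values measure only the spread between these samples.

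Gli proteins are the zinc finger transcription factors at the end of the Hedgehog pathway. A Hedgehog ligand binds the receptor Ptch1, which then stops holding back the membrane protein Smo, and Gli2 passes from a repressor to an activator form. Ptch1 is itself a Gli target in most tissues, which makes its RNA a common readout of pathway activity. In the T cell lineage the pathway is known from thymocyte development, and in peripheral CD4 T cells from its effects on receptor signalling and helper cell differentiation.

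Expression is given as a log2 level, log2(intensity + 16) after quantile normalization, with 18193 genes each read from 1 probe set. The floor of this scale is 4, and levels near it understate a fold change. Array medians of intensity ranged from 55.5 to 76.3. Correlations across genes were 0.971 to 0.975 within stimulated WT, 0.973 to 0.977 within stimulated Gli2A Tg and 0.966 to 0.975 between them. Stimulated Gli2A Tg replicate 2 stood apart: its beta-actin probe sets gave a 3' over 5' ratio of 3.0, where the next array of the series had 1.82, and a high ratio is a known sign of shortened RNA. Its score on the third principal component was 51.0, where the other arrays had -23.8 to 16.6. Resting Gli2A Tg replicate 3 also stood apart, with 55.4 on the second component, where the others had -34.6 to 14.1. Its summed CD4 T cell markers were 83230, against 113200 and 114000 in the other resting Gli2A Tg arrays, and its erythroid and platelet markers 86830, against 42200 and 49180. By Xist and Y-linked genes, 1 of 3 stimulated WT arrays (replicate 2) and 0 of 3 stimulated Gli2A Tg arrays had a male pattern.

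Few genes separated the stimulated genotypes. In limma's moderated test with Benjamini-Hochberg adjustment over all genes, 25 of 18193 genes (0.137%) passed an adjusted p of 0.05, 17 higher in Gli2A Tg cells (0.0934%) and 8 lower (0.044%). Ptch1 and Il4, the cytokine of type 2 helper cells, were among the 3 largest increases, and Dapl1, a gene of naive T cells, fell the most among those that passed. The 3 Gli2A Tg arrays lay wholly above or below the 3 WT arrays for all 25, and 19 differed by more than 2-fold. Of all genes, 9.38% lay wholly above and 8.65% wholly below. Genes chosen for a small p tend to separate, so the lack of overlap only describes the 25. For 11 of the 25, the lower of the group means was under 6, close to the floor. At an unadjusted p under 0.05 there were 1129 higher genes (6.21%) and 953 lower genes (5.24%), and 51.3% of all differences were above 0.

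The count depended on the spread estimate. A fit to the 6 arrays alone passed 0 genes with limma (adjusted p of the 25 from 0.0682 to 0.345), with 1710 genes at an unadjusted p under 0.05. Trend and robust options passed 170, with 97 higher (0.533% of all genes) and 73 lower (0.401%). Leaving out 1 array at a time passed 8 to 29 genes, of which only 3 to 13 were among the 25. There were 8 without Gli2A Tg replicate 2 (3 of them among the 25) and 14 without Gli2A Tg replicate 1 (8 of them). Ptch1, Fsd2 and 4930431F12Rik passed in each of these 6 leave-one-out fits. Median centring passed 14, arrays of the female pattern alone 8, and a covariate for myeloid markers 2. A covariate for sex passed 26, of which 20 were among the 25. Deposited scaling alone passed 19 (18 of them among the 25) and log2(intensity + 1) passed 29 (20 of them).

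**Figure D1:**
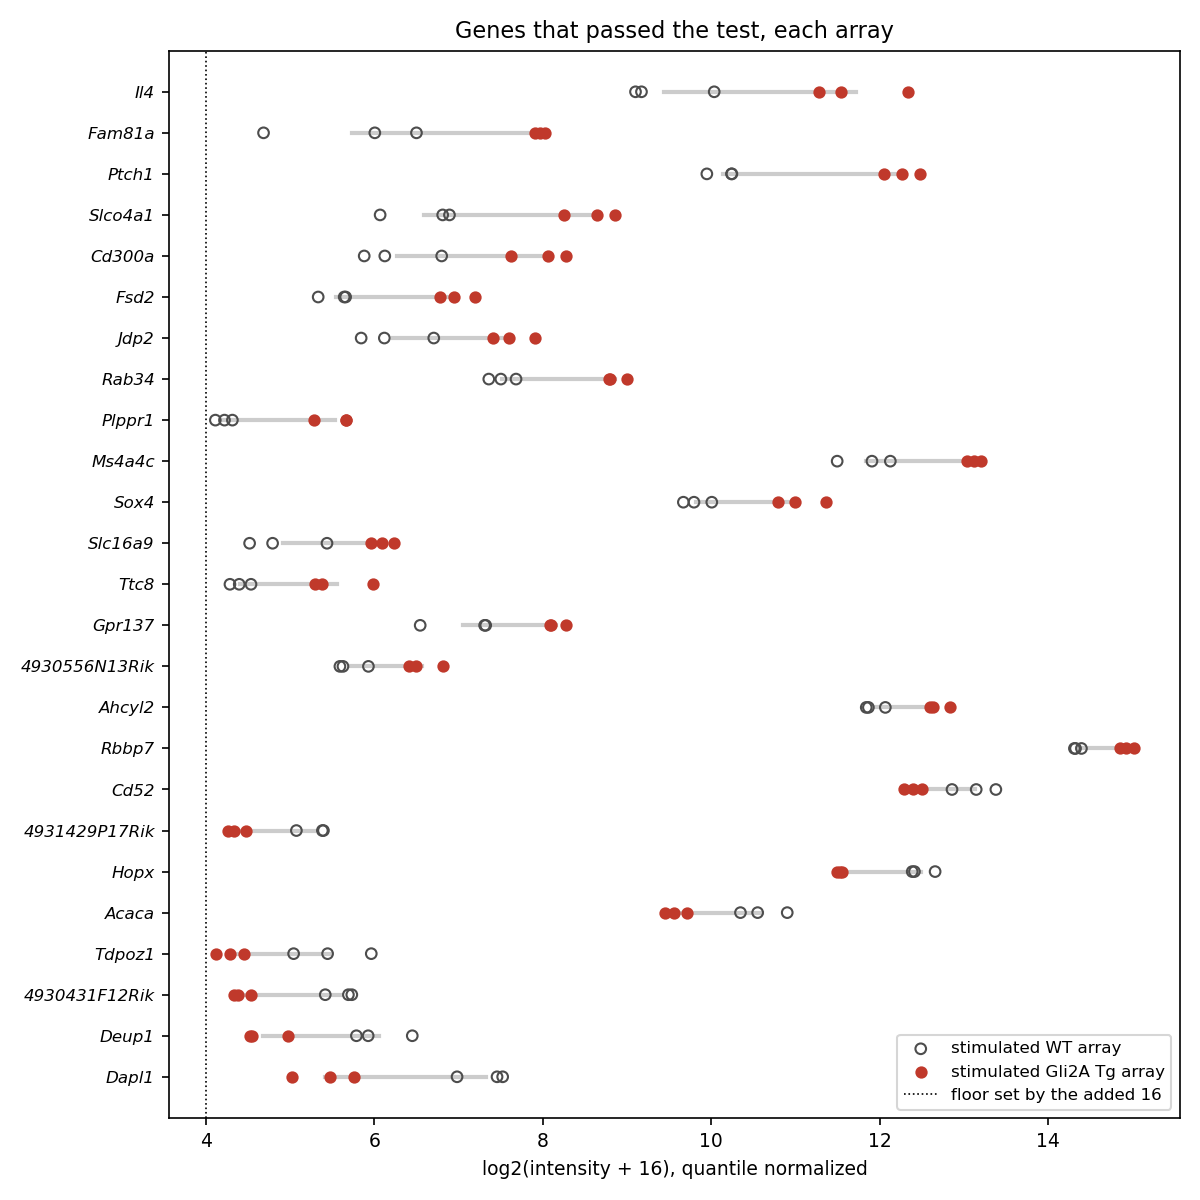
Log2 level, log2(intensity + 16) after quantile normalization, of the 25 genes that passed, with each stimulated WT array as an open circle, each stimulated Gli2A Tg array as a filled circle and a grey bar between the group means. The genotypes do not overlap in any row, where 9.38% of all genes lay wholly above WT and 8.65% wholly below. Ptch1 and Il4 lie at high levels, and several of the lower rows end close to the floor of 4 (dotted line).

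Gli2, the factor the transgene is named for, was at 4.25, 5.55 and 4.93 in the stimulated WT arrays and 4.17, 4.70 and 4.25 in the stimulated Gli2A Tg arrays. The groups overlapped close to the floor (-0.53; adjusted p = 0.666), and its other probe set gave 0.80. No source used here says if either probe set reads the part of Gli2 that the transgene holds, so Gli2 does not check the labels. Ptch1, the receptor and Gli target, gave the smallest p. Its log2 level was 10.24, 9.95 and 10.25 in the stimulated WT arrays and 12.05, 12.27 and 12.48 in the stimulated Gli2A Tg arrays. Every Gli2A Tg array was thus higher than every WT array, by more than 1 log2 unit. The difference was 2.12 ± 0.16 (SE, n = 3 and 3), or 4.35-fold (adjusted p = 1.94e-05). Its 3 probe sets gave differences of 0.34 to 2.12, all positive, and a mean over them of 1.29 did not pass (adjusted p = 0.0663). Stimulated Gli2R Tg arrays had Ptch1 at 10.08, 10.23 and 9.96, and their mean differed from that of WT by -0.06.

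The rest of the Hedgehog pathway did not pass. Of 22 measured pathway components Ptch1 alone rose; 15 differences were above 0 and 7 below, with a median of 0.15 against 0.01 for all genes. At an unadjusted p under 0.05, 4 of the 22 were higher (Ptch1, Smo, Kif3a and Ihh) and 0 lower, against 6.21% and 5.24% of all genes. Smo, the signal transducer that Ptch1 restrains, had levels of 7.76, 7.48 and 7.88 in WT and 8.26, 8.89 and 8.38 in Gli2A Tg arrays. The groups did not overlap, and the difference of 0.81 ± 0.26 had an adjusted p of 0.244. Kif3a, a motor protein subunit of the cilium, differed by 0.49 and the ligand gene Ihh by 0.44. Gli1, the Gli family member that Hedgehog signals commonly induce, was at 5.66, 6.04 and 6.16 in WT and 6.52, 6.27 and 6.04 in Gli2A Tg arrays, and these ranges overlapped. The remaining pathway components lay between 0.64 for the ligand gene Dhh and -0.76 for Shh, with the co-receptor Cdon at 0.01, the Gli inhibitor Sufu at -0.02 and the decoy receptor Hhip at -0.21. The probe sets of Shh disagreed in sign (-0.76 and 0.72), as did those of Boc, Dhh, Gas1, Gli3, Hhat, Hhip, Spop and Sufu.

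Textbook Gli targets were a mixed group. Of 18 measured, 10 differences were above 0 and 8 below (median 0.07), Ptch1 rose, and no other member passed. Mycn, a growth-promoting transcription factor, differed by 1.01 with overlapping groups, but its other probe sets gave -0.57 and -0.86. The survival gene Bcl2 differed by 0.43. Gli proteins bind sites close to GACCACCCA. In the 250 bases before the gene start, on either strand, RefSeq promoters (GRCm38.p6) held this 9-letter motif in 0 of the 24 genes that passed and have a promoter there, and in 0.255% of 27025 genes. Its 7-letter core CCACCCA, which lies within the longer motif, was in 5 of the 24 (20.8%, against 9.29% of all genes): Ahcyl2, Cd300a, Fam81a, Ms4a4c and Rbbp7. All 5 were higher in Gli2A Tg cells, as were 17 of the 25 genes that passed. Other probe sets of Cd300a and Rbbp7 gave -0.43 and -0.04. The Ptch1 window (chr13:63565736-63565985, minus strand) held neither, which says only that these letters are not in that window. Fam81a and Cd300a are shown as the pair with the largest differences, 5′ to 3′ on the gene's strand with the core in capitals (a match on the other strand reads TGGGTGG). Their windows are chr9:70141558-70141807, minus strand, with the core 95 to 101 bases before the start, and chr11:114889791-114890040, plus strand, with the core 57 to 63 bases before it.
Fam81a: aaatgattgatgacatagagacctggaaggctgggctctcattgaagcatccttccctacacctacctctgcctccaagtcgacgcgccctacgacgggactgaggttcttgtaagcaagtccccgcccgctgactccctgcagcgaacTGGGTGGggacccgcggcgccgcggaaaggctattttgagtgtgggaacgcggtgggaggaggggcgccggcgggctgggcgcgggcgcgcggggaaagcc
Cd300a: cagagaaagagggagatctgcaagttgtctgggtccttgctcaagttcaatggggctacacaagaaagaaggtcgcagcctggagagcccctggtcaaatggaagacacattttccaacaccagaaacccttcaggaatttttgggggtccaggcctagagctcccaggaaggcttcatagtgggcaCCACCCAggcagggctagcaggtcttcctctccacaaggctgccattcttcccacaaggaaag

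Among the other genes that rose, Fam81a had levels of 6.5, 4.69 and 6.01 in WT and 7.96, 7.91 and 8.02 in Gli2A Tg arrays. The Gli2A Tg arrays lay close together and the WT arrays spread over almost 2 log2 units, and the difference was 2.23 ± 0.37 (adjusted p = 0.0286). Slco4a1, an organic anion transporter, was at 6.81, 6.89 and 6.07 in WT and 8.25, 8.64 and 8.86 in Gli2A Tg arrays, a 3.98-fold rise (1.99 ± 0.32; adjusted p = 0.0262). Both of its probe sets were higher, by 1.33 and 1.99. Sox4, an HMG-box transcription factor of lymphocyte development, was at 10.01, 9.67 and 9.80 in WT and 10.79, 10.99 and 11.36 in Gli2A Tg arrays (1.22 ± 0.18; adjusted p = 0.0217). This is a high level with a small spread, although only 5 of the 8 Sox4 probe sets were above 0. Ms4a4c, a membrane protein of the MS4A family, was at 11.91, 12.13 and 11.50 in WT and 13.04, 13.20 and 13.13 in Gli2A Tg arrays, and its probe sets gave 1.28 and 1.76. These calls did not hold in every fit with 1 array left out, and such fits also have fewer arrays. Without Gli2A Tg replicate 2 the differences were 2.26 for Fam81a, 1.96 for Slco4a1, 1.25 for Sox4 and 1.24 for Ms4a4c. Without Gli2A Tg replicate 2 the adjusted p was 0.0846 for Fam81a and Slco4a1, 0.0607 for Sox4 and 0.109 for Ms4a4c. Fam81a also lost its call without Gli2A Tg replicate 1 or 3, Slco4a1 without WT replicate 3 or Gli2A Tg replicate 3, Sox4 without WT replicate 2, and Ms4a4c without any array but WT replicate 2 (adjusted p of these from 0.0512 to 0.0977).

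The remaining genes that rose had mixed known roles. Rab34, a small GTPase that primary cilia need for their formation, was at 7.68, 7.50 and 7.36 in WT and 9.00, 8.80 and 8.79 in Gli2A Tg arrays. Its groups were more than 1 log2 unit apart (1.35 ± 0.21; adjusted p = 0.0251), and the other probe set gave 2.01. Ttc8, a subunit of the BBSome that moves cargo in cilia, rose by 1.14 from levels of 4.29 to 4.54, which are near the floor. Jdp2, a leucine zipper protein that represses AP-1, was at 6.12, 6.71 and 5.84 in WT and 7.91, 7.60 and 7.41 in Gli2A Tg arrays (1.41; adjusted p = 0.0217), but its other probe set gave -0.98. Cd300a, an inhibitory receptor known mainly from myeloid cells, was at 6.80, 6.12 and 5.88 in WT and 8.06, 8.28 and 7.62 in Gli2A Tg arrays (1.71 ± 0.25; adjusted p = 0.0217), with -0.43 for its other probe set. The probe sets of Jdp2 and of Cd300a thus disagreed on direction. Fsd2, known from muscle, was at 5.66, 5.64 and 5.33 in WT and 6.78, 6.95 and 7.20 in Gli2A Tg arrays (1.43 ± 0.18; adjusted p = 0.00991). Stimulated Gli2R Tg arrays had it at 6.69, 6.55 and 6.67, above each WT array and below each Gli2A Tg array. The rest were Plppr1, a brain membrane protein (1.32), the monocarboxylate transporter family gene Slc16a9 (1.18), the orphan receptor Gpr137 (1.10), 4930556N13Rik (0.86), Ahcyl2 (0.76) and Rbbp7, a histone-binding subunit of chromatin complexes (0.59). Plppr1, Slc16a9, Ttc8 and 4930556N13Rik had WT means under 6. Slc16a9, Ttc8, Gpr137 and 4930556N13Rik each passed in 1 of the 6 leave-one-out fits, Rbbp7 in 0 and Ahcyl2 in 2. Among the alternatives, 4930556N13Rik passed in 3 of 20, Ttc8 in 4 of 20 and Rbbp7 in 5 of 21. Gpr137 passed in 7 of 21, Slc16a9 in 9 of 21 and Ahcyl2 in 11 of 21. The other 3 probe sets of Plppr1 gave -0.20, -0.07 and 0.06, the mean over all 4 was 0.28 (adjusted p = 0.659), and it passed in 0 of the 6 leave-one-out fits and 3 of 20 alternatives. Rbbp7 depended on the scaling, with 0.17 with median centring, and its other probe set gave -0.04. Without Gli2A Tg replicate 1 or 2 the adjusted p of Rab34 and Jdp2 was 0.0632 and 0.0661, and that of Cd300a 0.0526 and 0.0661. Rab34 also did not pass without WT replicate 2 or 3, nor Jdp2 without WT replicate 1 or 3 (adjusted p from 0.0509 to 0.0655). Rbbp7 and the genes with Rik names fell outside the naming rule and were named after their values were seen.

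Resting cells gave the same comparison on separate arrays. There 100 genes passed (0.55%), 75 higher (0.412%) and 25 lower (0.137%). The count was 40 with sex as a covariate (2 of 3 resting WT and 0 of 3 resting Gli2A Tg arrays had the male pattern), 11 with the 6 resting arrays alone, 42 without resting WT replicate 2 and 63 without resting Gli2A Tg replicate 3. Dapl1, Fam81a, Ms4a4c, Ptch1, Slco4a1 and Sox4 passed in both conditions, 6 genes, or 24% of the 25 stimulated and 6% of the 100 resting calls. Of the 25 stimulated calls 22 had the same sign in resting cells, 16 of the 17 higher and 6 of the 8 lower. The share of all genes with the same sign is not given here, so this count is only a description. Ptch1 differed by 3.11 at rest and 2.12 after stimulation, Slco4a1 by 2.67 and 1.99, Sox4 by 1.73 and 1.22, and Fam81a by 2.09 and 2.23. The test of the difference between the conditions did not pass for any of these 4 (adjusted p = 0.139 for Ptch1, 0.666 for Slco4a1, 0.525 for Sox4 and 0.96 for Fam81a). Fsd2 differed by 0.00 at rest and 1.43 after stimulation (adjusted p of that change 0.0736).

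Most of what separated the genotypes at rest was smaller after stimulation. Of the 75 genes higher in resting Gli2A Tg cells 49 were above 0 in stimulated cells and 31 were without overlap, where 9.38% of all genes were; their median difference was 1.33 at rest and 0.24 after stimulation. Of the 25 lower genes 15 were below 0 and 8 without overlap (8.65% of all genes), with medians of -1.08 and -0.08. The resting difference was the larger for 73 of the 75 and for all 25, but these genes were chosen for it, so the comparison is a description. Markers of other cells differed between the conditions and, at rest, between the genotypes: the summed intensity of 21 myeloid markers was 112000 to 171100 in resting WT and 184500 to 195900 in resting Gli2A Tg arrays, against 10340 to 17070 in the 6 stimulated arrays. For 16 B cell markers it was 46080 to 52600 and 70200 to 103600 at rest, against 11430 to 19860. Their part in the resting differences was not tested. In a test of the difference itself, 2 of 18193 genes passed (0.011%), Pmepa1 and Ifit1, both lower in stimulated than in resting cells relative to WT.

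**Figure D2:**
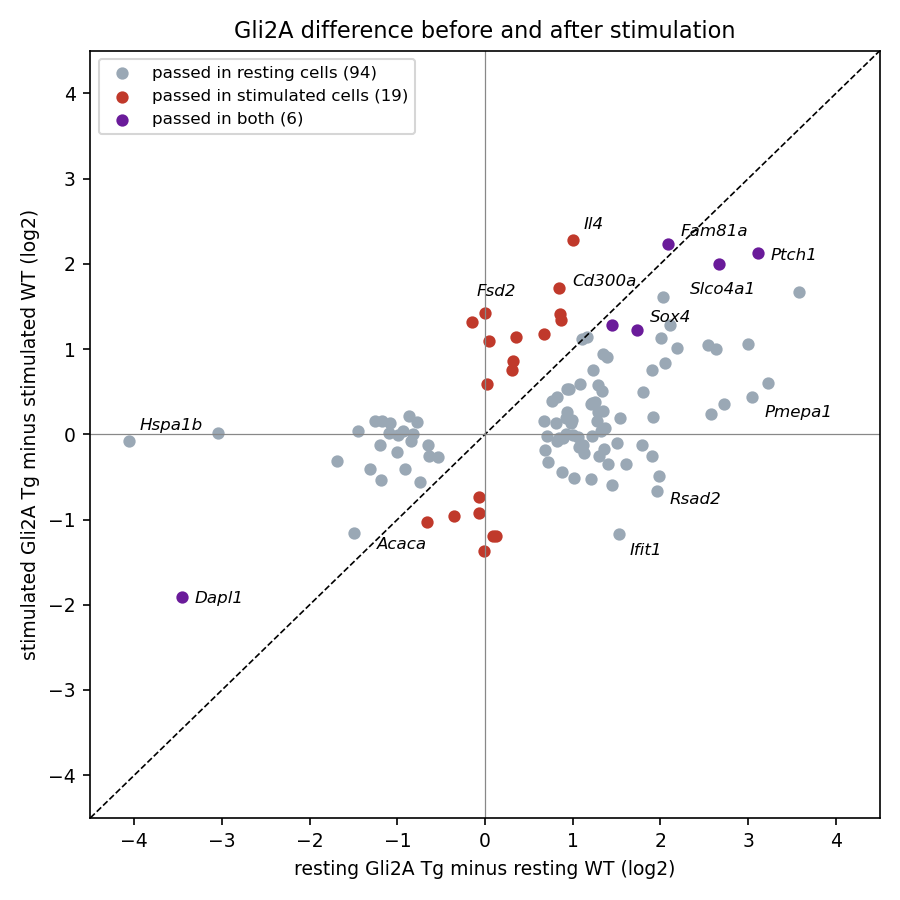
Difference between Gli2A Tg and WT (log2) in resting cells on the horizontal axis and in stimulated cells on the vertical axis, for the genes that passed in either condition, with equal differences on the dashed line. Genes that passed in both (6) run from Dapl1 at the lower left to Ptch1 at the upper right, most resting calls lie near 0 on the vertical axis, and Il4 lies above the line.

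Pmepa1, a TGF-beta-induced gene whose product restrains TGF-beta signalling, was at 7.35, 7.90 and 7.96 in resting WT and 11.06, 10.79 and 10.49 in resting Gli2A Tg arrays. After stimulation it was at 8.75, 8.96 and 8.90 in WT and 9.27, 9.39 and 9.28 in Gli2A Tg arrays. The groups stayed apart, but by 0.44 in place of 3.04, a change of -2.60 ± 0.30 (adjusted p = 0.00634). Both genotypes moved towards each other: the WT mean was higher after stimulation and the Gli2A Tg mean lower. Its other probe sets gave 0.53 and 0.74 in stimulated cells.

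Of 31 TGF-beta signalling genes, 20 differences were above 0 and 11 below in stimulated cells (median 0.05), and 0 passed with limma; at an unadjusted p under 0.05 there were 4 higher and 1 lower (6.21% and 5.24% of all genes). The ligand gene Tgfb3 was at 5.65, 6.43 and 6.11 in WT and 7.77, 8.35 and 6.90 in Gli2A Tg arrays. These did not overlap, and the difference of 1.61 ± 0.35 had an adjusted p of 0.0821. Tgfbr3, the co-receptor betaglycan, was at 9.32, 9.51 and 9.00 in WT and 9.94, 10.47 and 10.69 in Gli2A Tg arrays (1.09 ± 0.21; adjusted p = 0.0531). Both passed as higher with the trend and robust options, where 0.533% of all genes did. Smad6, an inhibitory Smad, differed by 0.83 and Id3, an inhibitor of E proteins, by -0.74. The receptors Tgfbr1 and Tgfbr2 were at -0.03 and -0.10.

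Il4 rose the most among the genes that passed. It was at 9.10, 9.17 and 10.04 in the WT arrays and 11.54, 12.33 and 11.28 in the Gli2A Tg arrays. The lowest Gli2A Tg array was more than 1 log2 unit above the highest WT array, and the difference was 2.28 ± 0.37, or 4.86-fold (adjusted p = 0.0262). Stimulated Gli2R Tg arrays were lower than WT, at 7.91, 8.81 and 7.33, so that the 3 genotypes did not overlap. In resting cells the group means were 6.92 in WT and 7.92 in Gli2A Tg, a difference of 1.00 that did not pass (adjusted p = 0.339), and the change in the genotype difference on stimulation, 1.28, did not pass either (adjusted p = 0.43). The Il4 difference stayed between 1.84 and 2.58 in every alternative. It did not pass without WT replicate 1 (adjusted p = 0.0737), WT replicate 2 (0.0747), Gli2A Tg replicate 1 (0.0632) or Gli2A Tg replicate 2 (0.0966). Il4 has 1 probe set on the array. These are bulk samples, in which more cells that express a gene and more RNA per cell cannot be told apart.

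No other type 2 gene passed. Of 18 Th2 genes 7 differences were above 0 and 11 below (median -0.08). Gata3, the transcription factor that defines Th2 cells, was at 9.77, 9.80 and 9.94 in WT and 9.92, 9.56 and 10.06 in Gli2A Tg arrays (0.01 ± 0.21). Maf, another activator of Il4, differed by -0.09, and Il5 by 0.20 with overlapping groups. Il13 was at 7.00, 7.34 and 7.24 in WT and 7.29, 5.57 and 5.51 in Gli2A Tg arrays, where replicate 1 was as high as WT (-1.07; adjusted p = 0.425). Il3, a growth factor of myeloid cells and basophils, was at 6.98, 6.70 and 6.98 in WT and 5.84, 4.17 and 4.45 in Gli2A Tg arrays. Its groups did not overlap (-2.07 ± 0.49, adjusted p = 0.101), and it passed as lower with the trend and robust options, where 0.401% of all genes did. Gli2R Tg arrays were also below WT on average for Il13 (-1.96), Il3 (-1.35) and Il5 (-1.29).

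The Il4 promoter is shown because Il4 transcription after T cell receptor signalling is known to run through NFAT, which binds GGAAAA. The motif, read on both strands, was in 22.9% of all genes' 250-base windows and in 11 of the 24 genes that passed (45.8%). These went both ways. Il4, Ahcyl2, Cd300a, Slc16a9 and Slco4a1 were higher in Gli2A Tg cells, and 4930431F12Rik, 4931429P17Rik, Acaca, Deup1, Hopx and Tdpoz1 were lower. The Il4 window holding it (chr11:53618666-53618915, minus strand, GRCm38.p6, RefSeq) held 4 matches, at 55 to 60, 73 to 78, 156 to 161 and 180 to 185 bases before the start, in capitals below; TTTTCC is a match on the other strand.
Il4: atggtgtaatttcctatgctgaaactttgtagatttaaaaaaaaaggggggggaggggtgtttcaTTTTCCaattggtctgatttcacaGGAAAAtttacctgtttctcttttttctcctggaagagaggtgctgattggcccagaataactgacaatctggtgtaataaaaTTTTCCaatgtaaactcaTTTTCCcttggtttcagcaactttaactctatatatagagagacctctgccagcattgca

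**Figure D3:**
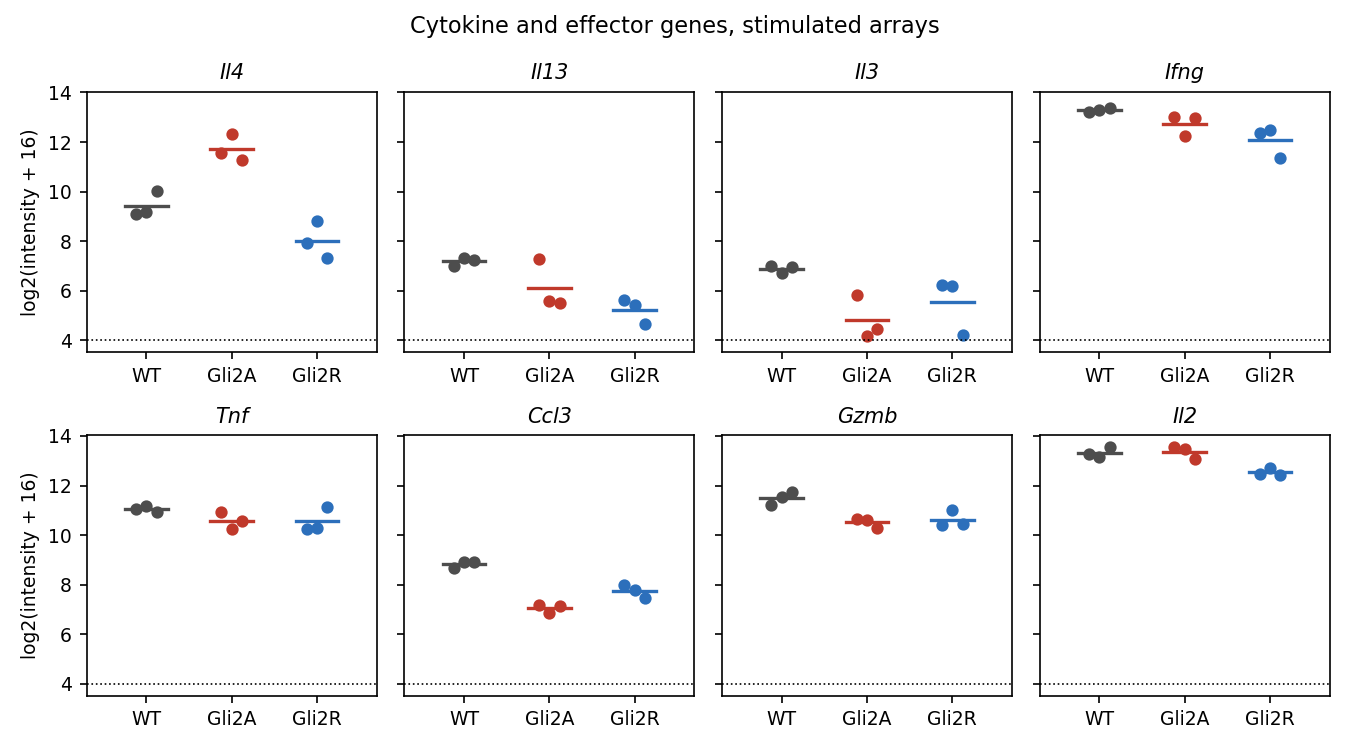
Log2 level of 8 cytokine and effector genes in the stimulated arrays of WT, Gli2A Tg and Gli2R Tg cells, with 1 point per array, the group mean as a bar and the floor of 4 as a dotted line. Il4 alone is higher in Gli2A Tg than in WT without overlap, Il2 overlaps between WT and Gli2A Tg, and Ccl3 and Gzmb lie lower in both transgenic genotypes.

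Type 1 genes lay mostly on the lower side without passing. Of 19 Th1 genes 17 differences were below 0 and 2 above, with a median of -0.46, and 11 were without overlap below WT (8.65% of all genes). At an unadjusted p under 0.05, 7 were lower and 1 higher, against 5.24% and 6.21% of all genes, and 0 passed with limma. Gzmb, a granule protease, passed as lower with the trend and robust options, where 0.401% of all genes did. It was at 11.22, 11.55 and 11.74 in WT and 10.63, 10.62 and 10.29 in Gli2A Tg arrays (-0.99 ± 0.21; adjusted p = 0.078). The chemokine gene Ccl3 was at 8.68, 8.90 and 8.92 in WT and 7.17, 6.87 and 7.13 in Gli2A Tg arrays (-1.77 ± 0.53; adjusted p = 0.202). These groups lay far apart next to their own spread, but the fit uses 1 spread for all 6 groups. Ifng, the signature cytokine, was at 13.22, 13.31 and 13.38 in WT and 13.02, 12.23 and 12.97 in Gli2A Tg arrays (-0.57 ± 0.47; adjusted p = 0.706). Tbx21, the Th1-defining transcription factor, differed by -0.65, the IL-12 receptor chain Il12rb1 by -0.69, Cxcr3 by -0.61 and Tnf by -0.46. On the other side, Fasl, a death ligand, was at 11.51, 11.41 and 11.07 in WT and 11.94, 12.17 and 12.20 in Gli2A Tg arrays (0.77 ± 0.21; adjusted p = 0.161). Relative to the resting comparison, where the Th1 median was 0.13, 8 of the 19 were lower in stimulated cells at an unadjusted p under 0.05, against 5.26% of all genes. Gli2R Tg arrays were also below WT on average for Gzmb (-0.89), Ccl3 (-1.09) and Ifng (-1.23), on the same WT arrays. Without Gli2A Tg replicate 2 the Th1 median was -0.31.

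Chemokine and cytotoxic genes share members with the Th1 list (Ccl3, Ccl4, Ccl5 and Cxcr3, and Gzmb, Fasl and Prf1), so these lists are not independent of it. Of 27 chemokine and chemokine receptor genes 17 differences were below 0 and 8 were lower and 0 higher at an unadjusted p under 0.05 (5.24% and 6.21% of all genes), with a median of -0.19. Ccl4 differed by -0.92, Ccl1 by -1.23, the monocyte and memory cell receptor Ccr2 by -0.83 and the follicular homing receptor Cxcr5 by -0.76. Of 14 granzyme and cytotoxic genes 9 differences were below 0, and 5 were lower and 1 higher at an unadjusted p under 0.05 (5.24% and 6.21% of all genes). Gzme was at 5.96, 5.80 and 5.79 in WT and 4.34, 4.27 and 4.28 in Gli2A Tg arrays, the latter close to the floor (-1.55; adjusted p = 0.0679). No member of either list passed. Gzmb, Gzme and Srgn passed as lower with the trend and robust options, where 0.401% of all genes did.

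Dapl1 fell the most among the genes that passed. It was at 7.46, 7.52 and 6.98 in WT and 5.76, 5.47 and 5.02 in Gli2A Tg arrays. The genotypes were more than 1 log2 unit apart (-1.90 ± 0.27, 3.74-fold lower; adjusted p = 0.0217), and stimulated Gli2R Tg arrays were level with WT at 7.87, 7.16 and 7.21. At rest the means were 11.94 and 8.48, a difference of -3.46, so that Dapl1 was lower in Gli2A Tg cells in both conditions. Without Gli2A Tg replicate 2 its adjusted p was 0.0565. Of 22 naive and quiescence genes 12 differences were above 0 and 10 below, with a median of 0.04 that became -0.01 with median centring, and Dapl1 alone passed. Igfbp4, a binding protein of insulin-like growth factors, was at 11.79, 12.05 and 11.33 in WT and 10.73, 10.92 and 10.05 in Gli2A Tg arrays (-1.16; adjusted p = 0.078). The IL-7 receptor chain Il7r differed by -0.55 and Slfn2 by -0.58. Both passed as lower with the trend and robust options, as did Igfbp4 and 0.401% of all genes. The transcription factors Ets1 and Bach2 differed by 0.50 and 0.39.

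Hopx, an atypical homeodomain protein of effector and memory T cells, was at 12.39, 12.41 and 12.66 in WT and 11.49, 11.53 and 11.56 in Gli2A Tg arrays. Both groups were tight and both probe sets gave like values (-0.96 and -0.93; adjusted p = 0.0252 for the first). Cd52, a small glycoprotein on the lymphocyte surface, was at 13.15, 13.38 and 12.86 in WT and 12.40, 12.29 and 12.50 in Gli2A Tg arrays (-0.73 ± 0.13; adjusted p = 0.046). Acaca, the enzyme of the committed step of fatty acid synthesis, was at 10.90, 10.55 and 10.35 in WT and 9.56, 9.71 and 9.45 in Gli2A Tg arrays. It fell 2.03-fold (-1.02 ± 0.16; adjusted p = 0.0262), and its other probe set gave -0.28. Each of these genes passed in 1 of the 6 fits that left out an array (Hopx and Cd52 without WT replicate 1 and 3, respectively, and Acaca without WT replicate 3), and the adjusted p in the other fits was 0.0503 to 0.069, 0.0599 to 0.152 and 0.0512 to 0.0734. Deup1, a protein of centriole assembly (-1.37), Tdpoz1 (-1.20), 4930431F12Rik (-1.20) and 4931429P17Rik (-0.93) fell from WT levels of 5.04 to 6.45 to levels of 4.12 to 4.97, near the floor. Just past the threshold, and so without a call, lay Cd86, a co-stimulatory ligand (-1.04; adjusted p = 0.0531), the actin-binding gene Cotl1 (-0.74; 0.0531), the nuclear envelope gene Sun2 (-0.88; 0.0646) and Pcbd1 (-1.39; 0.0646); other probe sets gave 0.17 for Cd86 and 0.07 for Sun2.

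Effector and memory genes lay on the lower side. Of 21 genes 15 differences were below 0 (median -0.35), 4 were lower and 1 higher at an unadjusted p under 0.05 (5.24% and 6.21% of all genes), and 0 passed with limma. S100a6, a calcium-binding protein, was at 8.40, 9.00 and 8.69 in WT and 7.66, 7.59 and 7.65 in Gli2A Tg arrays (-1.07 ± 0.24; adjusted p = 0.0893). Its relative S100a4 was at 8.69, 9.52 and 9.10 in WT and 7.66, 8.18 and 8.45 in Gli2A Tg arrays (2.01-fold lower; adjusted p = 0.0943). Both were without overlap and passed as lower with the trend and robust options, where 0.401% of all genes did. The intermediate filament gene Vim differed by -0.82, and Anxa1, an annexin, by 0.75. Relative to the resting comparison, 9 of the 21 were lower in stimulated cells at an unadjusted p under 0.05 (5.26% of all genes), and their resting median was 0.20.

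Interferon response genes lay mostly above WT in resting and mostly below WT in stimulated Gli2A Tg cells. In stimulated cells 27 of 30 differences were below 0 and 3 above, with a median of -0.44, and 13 were without overlap below WT (8.65% of all genes). At an unadjusted p under 0.05, 12 were lower and 0 higher, against 5.24% of all genes, and 0 passed with limma. With the trend and robust options Ifit1, Irf7, Xaf1 and Rtp4 passed as lower, where 0.401% of all genes did. At rest 26 of the 30 were above 0, with a median of 0.33, and 4 passed, against 0.55% of all genes. Of the 30, 16 were lower in stimulated than in resting cells relative to WT at an unadjusted p under 0.05, and 0 were higher, against 5.26% and 4.88% of all genes. Myeloid and B cell markers also lay higher in resting Gli2A Tg than in resting WT cells, with the sums given above, and their part in this change was not tested. Without Gli2A Tg replicate 2 the stimulated median was -0.35, and without WT replicate 2 it was -0.41.

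Ifit1, an antiviral protein that binds foreign RNA, was at 11.40, 11.45 and 10.40 in stimulated WT and 10.14, 9.71 and 9.88 in stimulated Gli2A Tg arrays. At rest it was at 8.99, 9.28 and 9.32 in WT and 10.84, 10.39 and 10.95 in Gli2A Tg arrays. The order of the genotypes was thus opposite in the conditions: WT was lower at rest and higher after stimulation. The difference was 1.53 at rest (adjusted p = 0.0116) and -1.17 ± 0.25 after stimulation (adjusted p = 0.0787), and its change of -2.70 ± 0.35 passed (adjusted p = 0.0167). That change did not pass without stimulated Gli2A Tg replicate 3 (adjusted p = 0.0773) or resting WT replicate 2 (0.0595). Irf7, the transcription factor that amplifies the interferon response, was at 11.32, 11.44 and 11.20 in stimulated WT and 10.54, 10.60 and 10.76 in stimulated Gli2A Tg arrays (-0.69 ± 0.17; adjusted p = 0.128), and at 0.68 in the resting difference. Rtp4 differed by -0.70 after stimulation, Cxcl10 by -0.74 and Xaf1 by -0.61. Rsad2, the antiviral enzyme viperin, was at 11.95, 11.71 and 11.78 in stimulated WT and 11.17, 11.07 and 11.19 in stimulated Gli2A Tg arrays (-0.67; adjusted p = 0.415), where the resting difference of 1.96 had passed. Ifit3 differed by -1.06 with overlapping groups.

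Promoters of interferon response genes carry the interferon-stimulated response element, to which the STAT and IRF factors bind. A motif of its form, GAAA in 2 copies with 2 bases of any kind between them, on either strand, was in the 250 bases before the start of 13 of the 23 list members with a RefSeq promoter (56.5%) and in 3.46% of all genes. It can share its GAAA letters with GGAAAA. Ifit1, Ifit3 and Rsad2 are shown as the members with large changes between the conditions, with matches in capitals, all on the other strand, where each copy reads TTTC. The windows are chr19:34640639-34640888 (plus strand; matches 76 to 85 and 95 to 104 bases before the start), chr19:34583279-34583528 (plus strand; 113 to 122 and 147 to 156) and chr12:26456453-26456702 (minus strand; 111 to 120), all GRCm38.p6 from RefSeq.
Ifit1: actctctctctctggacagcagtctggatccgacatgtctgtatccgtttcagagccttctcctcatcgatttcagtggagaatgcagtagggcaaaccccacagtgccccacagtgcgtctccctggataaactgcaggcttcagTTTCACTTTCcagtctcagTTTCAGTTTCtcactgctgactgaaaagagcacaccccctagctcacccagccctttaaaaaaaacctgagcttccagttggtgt
Ifit3: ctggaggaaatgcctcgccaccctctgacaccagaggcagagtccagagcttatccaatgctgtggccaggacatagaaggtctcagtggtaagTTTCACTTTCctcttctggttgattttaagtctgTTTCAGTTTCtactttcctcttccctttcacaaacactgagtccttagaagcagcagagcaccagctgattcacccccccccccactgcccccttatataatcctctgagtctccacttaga
Rsad2: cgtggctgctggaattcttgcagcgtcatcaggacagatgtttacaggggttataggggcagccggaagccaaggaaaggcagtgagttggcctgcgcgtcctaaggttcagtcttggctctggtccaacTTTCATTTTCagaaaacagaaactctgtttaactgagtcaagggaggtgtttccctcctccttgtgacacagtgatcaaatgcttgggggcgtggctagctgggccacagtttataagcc

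**Figure D4:**
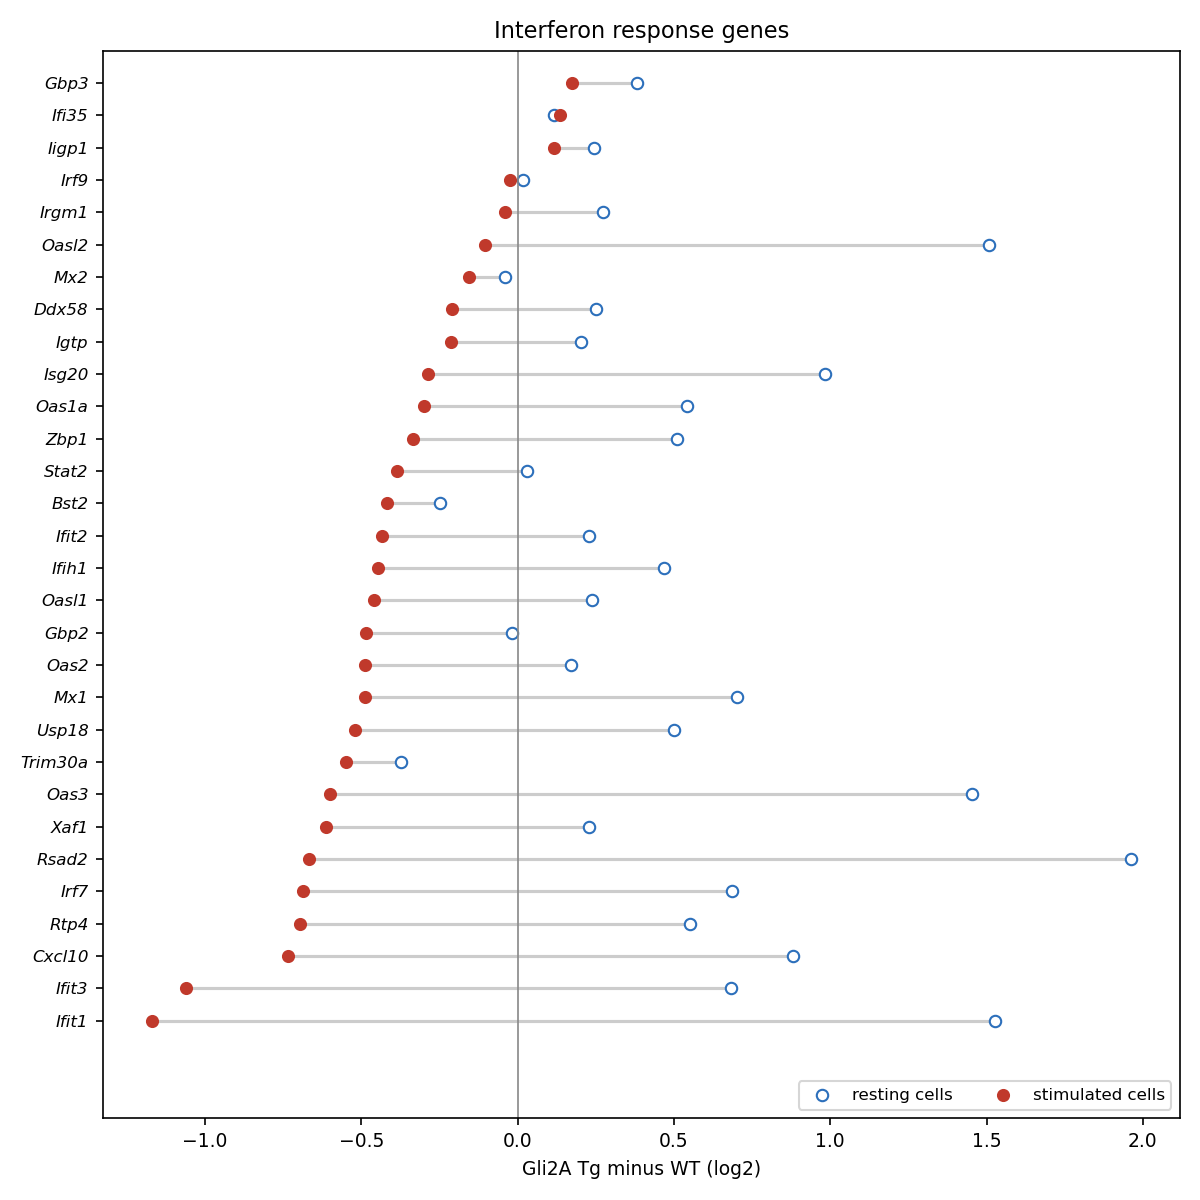
Gli2A Tg minus WT difference (log2) of the 30 interferon response genes in resting cells (open circles) and stimulated cells (filled circles), ordered by the stimulated difference. Most open circles lie right of 0 and most filled circles left of it, and the widest gaps belong to Ifit1, with -1.17 and 1.53, and Rsad2, with -0.67 and 1.96.

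No activation marker passed. Il2, the T cell growth factor, was at 13.28, 13.14 and 13.54 in WT and 13.54, 13.45 and 13.06 in Gli2A Tg arrays (0.03 ± 0.22), and the groups overlapped. The IL-2 receptor chain Il2ra differed by -0.23 and the early marker Cd69 by 0.40. Of 24 activation markers 16 differences were below 0 (median -0.18), and 3 were lower and 0 higher at an unadjusted p under 0.05 (5.24% and 6.21% of all genes). Without overlap, 9 of the 24 lay below WT and 2 above (8.65% and 9.38% of all genes). Cd40lg, the ligand that T cells use to help B cells, was at 6.94, 6.74 and 7.02 in WT and 6.66, 4.97 and 6.23 in Gli2A Tg arrays, with replicate 2 the lowest (-0.95). Of 22 immediate early and AP-1 factors 17 were below 0 (median -0.24), and 0 passed. At an unadjusted p under 0.05, 3 were lower and 0 higher (5.24% and 6.21% of all genes). Without overlap, 8 of the 22 lay below WT and 1 above (8.65% and 9.38% of all genes). Jun differed by -1.19, with its lowest level in Gli2A Tg replicate 2, and Myc by -0.56. For 26 ribosome biogenesis genes 22 were below 0 (median -0.21), and 10 lay below WT and 1 above without overlap. Without Gli2A Tg replicate 2 their median was -0.09. Nop58, a box C/D ribonucleoprotein component, was at 13.05, 13.03 and 13.02 in WT and 12.78, 10.99 and 12.47 in Gli2A Tg arrays.

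Sterol and fatty acid synthesis genes lay on both sides of WT. Of 20 genes 12 differences were above 0 and 8 below, and 8 were without overlap above WT (9.38% of all genes). At an unadjusted p under 0.05, 4 were higher and 1 lower (6.21% and 5.24% of all genes). Dhcr7, the last enzyme of cholesterol synthesis and a known modulator of Smo signalling, was at 7.58, 8.19 and 7.04 in WT and 8.52, 8.79 and 8.54 in Gli2A Tg arrays (1.01 ± 0.24; adjusted p = 0.106). It passed as higher with the trend and robust options, where 0.533% of all genes did. The desaturase gene Scd1 differed by 1.10 and Scd2 by 0.53, while the fatty acid synthase gene Fasn differed by -0.24. Of 26 cell cycle genes 13 lay on each side of 0 (median -0.002), and 0 were past an unadjusted p of 0.05. Of 18 regulatory T cell genes 15 were below 0 (median -0.24; 2 lower and 0 higher at an unadjusted p under 0.05, against 5.24% and 6.21% of all genes), with Foxp3 at -0.40.

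**Figure D5:**
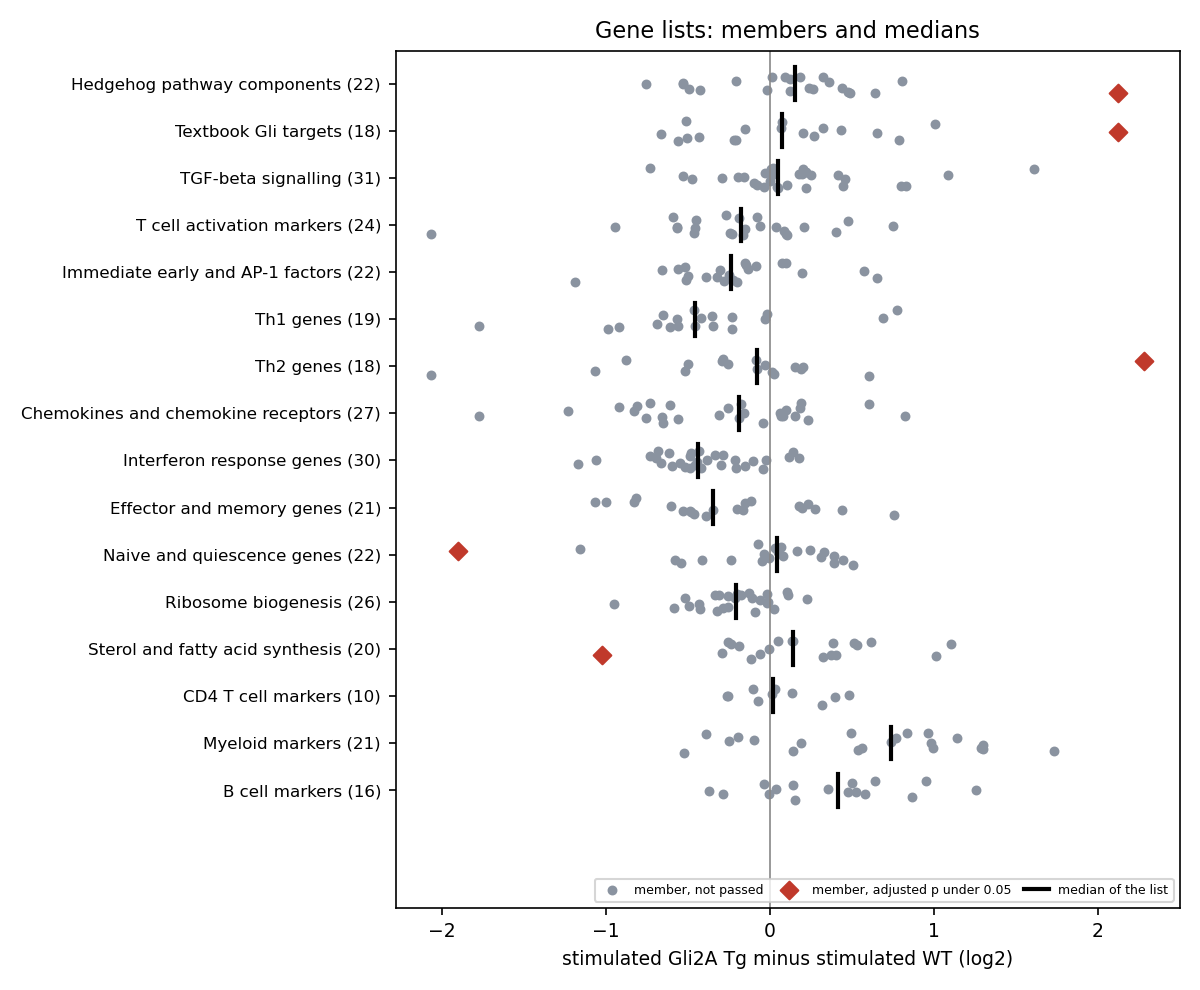
Gli2A Tg minus WT difference in stimulated cells (log2) for each member of 16 gene lists, with the number of measured members in brackets, members that passed as diamonds and the median as a black bar. The medians of the Th1 list (-0.46) and the interferon list (-0.44) lie lowest, that of the myeloid markers (0.74) highest, and diamonds mark Ptch1, Il4, Dapl1 and Acaca.

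The label of the cells was checked against markers. Of 10 measured CD4 T cell markers 6 differences were above 0 and 4 below (median 0.02), and the summed intensity was 55090 to 61630 in stimulated WT and 55570 to 59840 in stimulated Gli2A Tg arrays. Cd4 was at 9.83, 9.99 and 9.60 in WT and 10.37, 10.03 and 10.21 in Gli2A Tg arrays. Markers of other cells were also present. Of 21 myeloid markers 16 differences were above 0 and 10 were higher at an unadjusted p under 0.05 (6.21% of all genes), with 1 lower. The median was 0.74, or 0.52 without Gli2A Tg replicate 2, and 0 passed with limma. Csf1r, the macrophage growth factor receptor, was at 9.20, 8.09 and 8.68 in WT and 10.28, 10.32 and 8.80 in Gli2A Tg arrays, where replicate 3 lay within the WT range. Summed myeloid intensity was 13620 to 13990 in WT and 10340 to 17070 in Gli2A Tg arrays. With the mean level of these markers as a covariate, 2 genes passed, Ptch1 (2.26) and Fsd2 (1.67), while Il4 was at 2.21 (adjusted p = 0.206) and Dapl1 at -1.86 (adjusted p = 0.122). Of 16 B cell markers 12 were above 0 (median 0.42, and -0.03 without Gli2A Tg replicate 2), and their sums overlapped, at 11610 to 19750 in WT and 11430 to 19860 in Gli2A Tg arrays. Of 13 CD8 T and NK cell markers 9 were below 0 (median -0.16), with Cd8a at -0.05 and the receptor gene Klrc1 at -1.34. Sums were 4323 to 6135 in WT and 3680 to 5458 in Gli2A Tg arrays for CD8 T and NK cell markers, 762.8 to 1073 and 763.7 to 858.6 for dendritic cell markers, and 13280 to 18270 and 9728 to 15390 for erythroid and platelet markers. The part of these cells in the other differences was not tested beyond the covariate.

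Stimulated Gli2R Tg cells are given beside the Gli2A Tg values, with the caution that both use the same WT arrays. For Fsd2 the difference from WT was 1.43 with Gli2A and 1.09 with Gli2R. In the same order Gpr137 differed by 1.10 and 1.01, Rbbp7 by 0.59 and 0.50 and Tdpoz1 by -1.20 and -1.23. Plppr1 differed by 1.32 and 0.94, Slc16a9 by 1.18 and 0.90, 4930431F12Rik by -1.20 and -1.09 and 4931429P17Rik by -0.93 and -0.90. Ttc8 differed by 1.14 and 0.79, and 4930556N13Rik by 0.86 and 0.82. Ptch1, Dapl1 and Cd52 lay within 0.09 of WT in Gli2R Tg cells, and Il4, Slco4a1 and Rab34 were below WT there (-1.42, -0.50 and -0.21).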

How the data were processed

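CD4 T cell RNA was read on Affymetrix mouse arrays, with 18 arrays in 6 groups. Per the labels, the deposited values are linear intensities, 1 per probe set, which the authors had scaled to give every array the trimmed mean 500 (trim of 2%); the submitters' processing notes name affy, with no version. From the 45101 probe sets, those with 1 gene symbol were kept (34945) and the brightest probe set stood for each of 18193 genes; a gene with several probe sets may hold ones that disagree. The deposited intensities were turned into log2(intensity + 16), quantile normalized over the 18 arrays and fitted with 6 group means in limma 3.58.1 (lmFit and eBayes, R 4.3.3), with Benjamini-Hochberg adjustment over all genes and a threshold of 0.05. All adjusted p-values in the text come from limma. The number of arrays limits the precision. The code was tested on simulated data.

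Named genes were those that passed without overlap (up to 15 in each direction, without clone names, filled to 10 by lowest p as values), the Hedgehog genes, and the members of each list that passed or had the largest differences; further members, such as Gata3 and Il2, were named for their roles after their values were seen. Members and lists were chosen with earlier results of these data known. Alternatives changed the scaling, pseudocount, filter, probe set rule, test options, arrays and covariates. Promoters are RefSeq windows of 250 bases before the gene start.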

Additional observations from a re-analysis of the deposited data

Results flagged for a closer look

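The genotype difference changed between resting and stimulated cells for 2 genes. For Pmepa1 the Gli2A Tg minus WT difference was 3.04 ± 0.21 at rest and 0.44 ± 0.21 after stimulation, and the difference between them was -2.60 (limma, adjusted p = 0.00634). Each Gli2A Tg array was above each WT array in both conditions. The call held in every alternative run, with an adjusted p of at most 0.0382. For Ifit1 the difference was 1.53 at rest and -1.17 after stimulation, and the difference between them was -2.70 (adjusted p = 0.0167). All 3 Gli2A Tg arrays were above WT at rest and all 3 were below WT after stimulation. The Ifit1 call did not hold in a fit to the 12 arrays compared (adjusted p = 0.0838), without stimulated Gli2A Tg replicate 3 (0.0773) or without resting WT replicate 2 (0.0595).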

How the results depend on the processing

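The count of 25 genes in stimulated cells became 14 with median centring, 54 with log2(intensity + 64), 139 among genes at or above the median level, 13 with probe sets averaged per gene, 49 with every probe set, 170 with trend and robust options (97 higher, 0.533%, and 73 lower, 0.401%), 51 with array weights, 0 with 6 arrays alone (limma; 1710 at an unadjusted p under 0.05), 8 with female-pattern arrays, 2 with the myeloid covariate and 11 without replicate 2 of both groups; the last 3 settings were chosen after seeing the data. The same count was 26 with a sex covariate, 19 with deposited scaling only and 29 with log2(intensity + 1). Leaving out 1 array gave 8 to 29, of which 3 to 13 were among the 25. The count of 2 genes whose genotype difference changed became 4, 38, 45, 6, 34 and 7 with median centring, +64, the level filter, every probe set, trend and robust options, and weights, and 1 to 14 without 1 array. The 100 resting calls became 206, 187, 174, 11 and 40 with +64, the level filter, trend and robust options, 6 arrays and a sex covariate, and 42 to 91 without 1 array. None of the 25 changed sign in these settings, but the fit of every probe set was read only at each gene's brightest one. That fit could thus not show a change of sign at the others. Less bright probe sets had the opposite sign for Jdp2 (-0.98), Cd300a (-0.43), Plppr1 (-0.20 and -0.07) and Rbbp7 (-0.04). For Sox4 only 5 of 8 were above 0, and the rest of the 25 had no probe set of opposite sign. The replicate block gave 24, 3 and 87 calls; same-numbered arrays correlated at -0.011 to 0.014 between the stimulated genotypes, 0.018 to 0.103 between the resting ones and 0.013 to 0.056 between conditions within a genotype, not over 0.1 in every pair of any comparison, so the numbers were not used to pair arrays. Between conditions, each array correlated best with its own number (3 of 3 in both genotypes), a hint from the data and not from the design. Low-signal genes, 11 of the 25 calls, limit the folds.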
